A study of Rattus norvegicus with 21 samples.

Results

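The Gadd45 family was followed in rat liver over a series of doses of 2-ethylhexyl diphenyl phosphate, a flame-retarding plasticiser of the organophosphate esters, abbreviated in the labels as both EDHP and EHDP. The family has 3 genes, Gadd45a, Gadd45b and Gadd45g, and all 3 were on the array. A probe set, the group of array oligos that reports on a transcript, was taken as a member when the platform annotation gave it exactly 1 gene symbol and that symbol was one of these names. This found 1 probe set per gene, so the family was 3 of the 31099 probe sets and 3 of the 14218 genes measured. They were 1368947_at for Gadd45a, 1372016_at for Gadd45b and 1388792_at for Gadd45g.

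Male Harlan Sprague-Dawley rats received EHDP in corn oil by gavage once a day, 4 times in all, and the liver was taken on the day after the last dose. The 5 treated groups received 61.2, 122.5, 244.6, 489.2 or 978.5 mg/kg body weight and had 3 arrays each. The vehicle group, which received corn oil alone, had 6 arrays, although the protocol text speaks of 5 vehicle rats. No age or genetic alteration is given in the labels, and the numbering of the replicates says nothing of shared litters or days. Values are log2 signals, so a difference of 1 is a doubling, and the level of one probe set cannot be set against that of another.

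The array medians lay between 6.33 and 6.41. An array's correlation with the rest averaged 0.988 in vehicle replicate 6, the lowest, and 0.989 to 0.994 elsewhere. Over 11 hepatocyte markers the mean log2 signal was 14.39 to 14.49 in the vehicle arrays and 14.37 to 14.40 at 978.5 mg/kg. None of these markers was called at that dose, where 10.2% of all genes were called. By mean correlation vehicle replicate 6 was narrowly the array farthest from the rest, and results that turn on it are given with and without it. In whole tissue, fewer cells of a type and less RNA per cell cannot be told apart.

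The GADD45 proteins are small acidic proteins of the nucleus and cytoplasm that have no enzyme activity of their own and act by binding partners. They bind and activate MAP3K4, upstream of the p38 and JNK stress kinases, and also bind PCNA, p21 and the CDK1 and cyclin B complex. GADD45A is the classic p53 and DNA damage target of the family and is also a fasting-responsive gene in liver. GADD45B is induced by NF-kappa B, TGF-beta and the growth signals of liver regeneration, and by activators of the nuclear receptor CAR in hepatocytes. GADD45G is induced by cytokines and by stress, and its transcript follows an early, short-lived response.

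The 3 promoters are shown so that the sequence before the start sites can be compared between members. Each is the 250 bases before the RefSeq start site in GRCr8, read 5′ to 3′ on the minus strand, which carries all 3 genes. Capitals mark exact matches, on either strand, to the motifs searched.
Gadd45a: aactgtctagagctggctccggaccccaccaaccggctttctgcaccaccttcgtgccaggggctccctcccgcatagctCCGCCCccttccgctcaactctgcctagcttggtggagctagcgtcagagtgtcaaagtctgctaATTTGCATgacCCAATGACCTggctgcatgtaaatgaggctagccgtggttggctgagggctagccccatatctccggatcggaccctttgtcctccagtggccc
Gadd45b: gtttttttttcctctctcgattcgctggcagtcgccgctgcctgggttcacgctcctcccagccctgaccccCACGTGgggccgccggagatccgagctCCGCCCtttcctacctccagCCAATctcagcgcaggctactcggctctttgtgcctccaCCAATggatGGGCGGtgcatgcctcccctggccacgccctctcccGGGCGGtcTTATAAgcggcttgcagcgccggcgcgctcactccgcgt
Gadd45g: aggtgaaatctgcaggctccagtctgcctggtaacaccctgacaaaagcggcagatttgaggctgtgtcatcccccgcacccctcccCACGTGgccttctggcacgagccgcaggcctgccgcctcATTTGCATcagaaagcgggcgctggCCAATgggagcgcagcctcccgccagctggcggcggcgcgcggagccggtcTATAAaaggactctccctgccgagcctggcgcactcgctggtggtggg
The Gadd45a window is chr4:97486800-97487049, directly upstream of a gene annotated from 97484497 to 97486799. The Gadd45b window is chr7:9430719-9430968, and it overlaps the annotated gene, 9428689 to 9430991, whose outer limit lies upstream of the start site used. The Gadd45g window is chr17:13530352-13530601, directly upstream of a gene annotated from 13528606 to 13530351.

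All 3 windows were richer in G and C than the median of 51.2% over 33469 rat promoters, with 59.6% for Gadd45a and 66.0% for both Gadd45b and Gadd45g. CCAAT, the box bound by NF-Y, was in all 3 windows, with 1 match each in Gadd45a and Gadd45g and 2 in Gadd45b, and it was in 34.0% of all promoters. The octamer ATTTGCAT, bound by OCT1, was in Gadd45a and Gadd45g and in 1.56% of all promoters. The E-box CACGTG was in Gadd45b and Gadd45g and in 5.59% of all promoters. The GC box GGGCGG, bound by SP1, was in Gadd45a once and in Gadd45b at 3 places, and in 30.5% of all promoters. TATAA was in Gadd45b and Gadd45g and in 24.0% of all promoters, and in Gadd45b the matches on both strands overlap in the run TTATAA. The nuclear receptor element AGGTCA was in Gadd45a alone, where it overlaps the CCAAT box, and in 14.1% of all promoters. TGANTCA (AP-1), TGACGTCA (CRE) and TTATGTAA (the D-box bound by DBP) matched none of the 3 windows, and were in 6.34%, 1.59% and 0.828% of all promoters. These are descriptions of letters in a window, not of bound factors.

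Gadd45b was the member that passed the test against vehicle at a single dose. Its transcript was 3.36-fold higher at 978.5 mg/kg than in the vehicle group, and all 3 arrays of that dose lay above every other array of the study. At 489.2 mg/kg it was 1.49-fold the vehicle level and did not pass the test, and at the lowest doses all its arrays lay within the vehicle range. Gadd45a and Gadd45g passed no test at any single dose against vehicle, and their vehicle arrays were widely spread.

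The log2 signal of Gadd45b was 5.94 in the lowest vehicle array, 6.13 at their median and 6.74 in the highest. It was 6.07, 6.34 and 6.12 at 61.2 mg/kg, and 5.95, 6.03 and 6.28 at 122.5 mg/kg. These 6 arrays all fell within the range of the vehicle arrays. The signal was 6.55, 6.27 and 6.67 at 244.6 mg/kg, and 6.60, 7.11 and 6.58 at 489.2 mg/kg. At 978.5 mg/kg it was 7.50, 8.50 and 7.81. None of the 3 arrays at 244.6 mg/kg and 1 of the 3 at 489.2 mg/kg was above all vehicle arrays, while the 3 at 978.5 mg/kg shared no value with any other group.

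**Figure D1:**
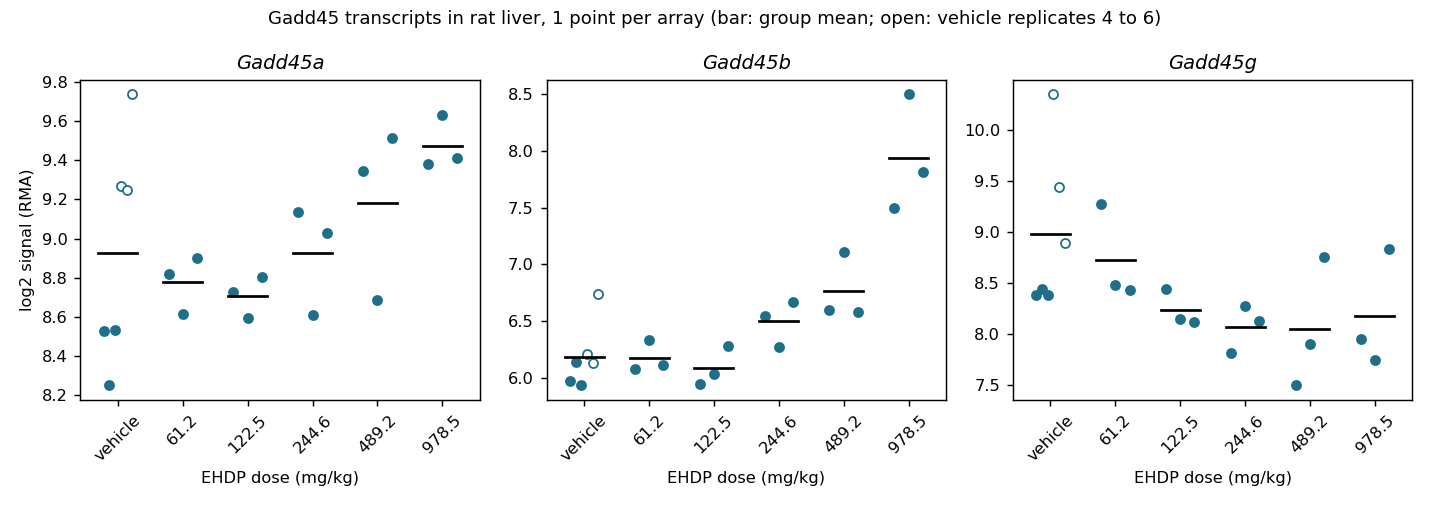
Log2 signal of Gadd45a, Gadd45b and Gadd45g (y axes, each with its own scale) in each of the 21 arrays, by EHDP dose in mg/kg (x axes); bars are group means and open circles are vehicle replicates 4 to 6. Gadd45b at 978.5 mg/kg runs from 7.50 to 8.50, above all other arrays, while the vehicle arrays of Gadd45a and Gadd45g span 8.25 to 9.74 and 8.38 to 10.35.

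Group means were 6.19 ± 0.29 (SD, n = 6) in the vehicle group and 7.94 ± 0.51 (SD, n = 3) at 978.5 mg/kg. The difference was 1.75 ± 0.19 (SE) on the log2 scale, with a limma p of 7.54e-06 after Benjamini-Hochberg adjustment over all genes. In that comparison 10.2% of all genes were called at an adjusted p below 0.05, so a call by itself was not rare there. By size, the rise of Gadd45b was number 20 among all genes that were higher. At 489.2 mg/kg the mean was 6.76 ± 0.30 (SD, n = 3), a difference of 0.57 ± 0.19 (SE) with a limma adjusted p of 0.125, where 2.90% of all genes were called. At 244.6 mg/kg the difference was 0.31 ± 0.19 (SE) with a limma adjusted p of 0.515, where 2.95% were called. At 122.5 and 61.2 mg/kg the differences were -0.10 and -0.01, and 0.113% and 0.0141% of all genes were called in these comparisons. Leaving out vehicle replicate 6, the highest of the vehicle arrays, took the difference at 489.2 mg/kg to 0.68, with a limma adjusted p of 0.0309.

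The dose groups themselves gave the order of Gadd45b, from the lowest mean of 6.09 at 122.5 mg/kg through 6.18 at 61.2 mg/kg and 6.19 in the vehicle group to 6.50, 6.76 and 7.94 at the 3 highest doses. The top group was apart from each other dose. Against 61.2 mg/kg the difference was 1.76 ± 0.22 (SE), with a limma adjusted p of 0.000169 in a comparison where 2.26% of genes were called. Against 122.5 mg/kg it was 1.85 ± 0.22, with a limma adjusted p of 0.000236 and 1.37% of genes called. Against 244.6 mg/kg it was 1.44 ± 0.22, with a limma adjusted p of 0.00533, where 0.239% of genes, 34 in all, were called. Against 489.2 mg/kg it was 1.18 ± 0.22, a 2.26-fold step, with a limma adjusted p of 0.0442. Between these doses 15 genes, or 0.106%, were called, all higher at 978.5 mg/kg, and Gadd45b was one of them.

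That last step was close to the threshold. It was lost, with limma adjusted p values of 0.114, 0.143 and 0.235, without replicate 1 or replicate 3 at 489.2 mg/kg or replicate 3 at 978.5 mg/kg, and its size stayed between 0.90 and 1.39 in all alternatives run. The step from 244.6 mg/kg was lost without replicate 2 of that dose, at 1.33 with a limma adjusted p of 0.0581.

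No other neighbours in the order of Gadd45b differed beyond their spread. The step from 244.6 to 489.2 mg/kg was 0.27 ± 0.22 (SE) with a limma adjusted p of 0.717, where 1.70% of genes were called. From vehicle to 244.6 mg/kg it was 0.31 ± 0.19 with a limma adjusted p of 0.515, where 2.95% were called. The group at 61.2 mg/kg differed from vehicle by -0.01 ± 0.19 with a limma adjusted p of 0.998, where 0.0141% were called. From 61.2 to 244.6 mg/kg, which have the vehicle group between them in this order, it was 0.32 ± 0.22. The limma adjusted p there was 0.775, where 0.0492% were called. Between 61.2 and 122.5 mg/kg no gene of the 14218 was called by limma (0%), with 674 at an unadjusted p below 0.05, and the 3 members had limma p values of 0.263 to 0.811 before adjustment. Over the whole series, as a slope on the rank of the dose from 0 to 5, Gadd45b rose by 0.28 ± 0.05 (SE) per step, with a limma adjusted p of 0.000547. In that slope test 11.2% of all genes were called.

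Gadd45a, the p53-responsive and fasting-responsive member, had its highest group mean at the highest dose and did not pass the test there. Its log2 signal ran from 8.25 to 9.74 in the vehicle arrays, with a median of 8.89. It was 8.82, 8.61 and 8.90 at 61.2 mg/kg, and 8.73, 8.59 and 8.80 at 122.5 mg/kg. It was 9.14, 8.61 and 9.03 at 244.6 mg/kg and 9.35, 8.68 and 9.52 at 489.2 mg/kg. At 978.5 mg/kg it was 9.38, 9.63 and 9.41, so the 3 arrays of the highest dose were close together, and all lay inside the vehicle range.

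The mean of Gadd45a was 8.93 ± 0.57 (SD, n = 6) in the vehicle group and 9.47 ± 0.14 (SD, n = 3) at 978.5 mg/kg. The difference of 0.55 ± 0.25 (SE), 1.46-fold, had a 95% interval of 0.03 to 1.06 and a limma adjusted p of 0.174. At the lower doses the differences from vehicle were -0.15, -0.22, -0.00 and 0.26 in order of dose, each with an SE of 0.25. In the order of its means, the group at 122.5 mg/kg was lowest with 8.71, followed by 61.2 mg/kg with 8.78, by 244.6 mg/kg and vehicle, both with 8.93, and by the 2 highest doses with 9.18 and 9.47. No pair of groups passed the test. The largest gap, of 0.77 ± 0.29 (SE) between 122.5 and 978.5 mg/kg, had a limma adjusted p of 0.199, although the 3 arrays of the higher dose were all above the 3 of the lower. The slope over dose rank was 0.10 ± 0.04 (SE) per step, with a limma adjusted p of 0.156.

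Among the treated arrays alone, 3 per dose, Gadd45a did rise with dose rank, by 0.19 per step, with a limma adjusted p of 0.016. That fit leaves out the vehicle group, whose mean of 8.93 was above the 8.78 and 8.71 at 61.2 and 122.5 mg/kg, where the slope starts. Over all groups the call turned on a vehicle array: without vehicle replicate 6 the slope over all groups was 0.13, with a limma adjusted p of 0.0201, and the difference at 978.5 mg/kg was 0.71, with a limma adjusted p of 0.0371.

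Gadd45g, the early response member, had a lower mean in each treated group than in the vehicle group. Its log2 signal ran from 8.38 to 10.35 in the vehicle arrays, with a median of 8.67. It was 9.27, 8.48 and 8.43 at 61.2 mg/kg, and 8.44, 8.15 and 8.12 at 122.5 mg/kg. It was 7.81, 8.28 and 8.13 at 244.6 mg/kg, all below every vehicle array. It was 7.50, 7.90 and 8.75 at 489.2 mg/kg and 7.95, 7.74 and 8.83 at 978.5 mg/kg, with 1 array of each of these doses, replicate 3, inside the vehicle range.

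The vehicle mean of Gadd45g was 8.98 ± 0.79 (SD, n = 6), and the dose means were 8.73, 8.24, 8.07, 8.05 and 8.18 from the lowest dose to the highest. The differences from vehicle were -0.25, -0.74, -0.91, -0.93 and -0.80 in the same order, each with an SE of 0.37. Without vehicle replicate 4, the highest array, they were 0.02, -0.47, -0.63, -0.65 and -0.53. None passed: the limma adjusted p was 0.251, 0.22 and 0.181 at the 3 highest doses, and the 95% interval at 978.5 mg/kg was -1.57 to -0.03. The means from 122.5 to 978.5 mg/kg lay within 0.18 of each other, and no pair of dose groups passed the test. The slope over dose rank, -0.19 ± 0.06 (SE) per step, did pass, with a limma adjusted p of 0.0422. That call was lost in 17 of 33 alternatives, among them leaving out vehicle replicate 4, at -0.14 with a limma adjusted p of 0.0737, and fitting the treated arrays alone, at -0.13 with a limma adjusted p of 0.407.

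The spread among the vehicle arrays was itself unusual for Gadd45a and Gadd45g. The SD of Gadd45a over the 6 vehicle arrays, 0.57, was at the 98.8th percentile of all genes, and that of Gadd45g, 0.79, at the 99.6th. For Gadd45b it was 0.29, at the 91.5th percentile, and the median gene had 0.135. For Gadd45a and Gadd45g the spread went with the number in the labels. Replicates 1 to 3 of the vehicle group, numbers that the dose groups also carry, had a mean of 8.44 for Gadd45a, and replicates 4 to 6 had 9.42. For Gadd45g these means were 8.40 and 9.56. For Gadd45b they were 6.02 and 6.36, but the sets overlapped, with 6.14 in replicate 2 and 6.13 in replicate 5. In Gadd45g the highest was replicate 4, at 10.35, and in Gadd45a it was replicate 6, at 9.74, so the arrays did not stand in one order. This division was made after the values had been seen, so it has no test. The median gene differed by 0.0885 between the same sets. Counting the members themselves, 31 genes differed by as much as Gadd45a or more, 17 by as much as Gadd45g or more and 645 by as much as Gadd45b or more.

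Other genes also differed between these vehicle sets. Over all genes the median difference, replicates 4 to 6 minus 1 to 3, was 0.005, so about as many genes were higher as lower. Over 19 immediate early genes, which cells switch on within minutes of a stimulus, the mean level was 7.56 to 7.68 in vehicle replicates 1 to 3 and 7.78 to 8.21 in replicates 4 to 6, and 13 of the 19 were higher in the latter. Egr1, an immediate early transcription factor, had means of 8.0 and 9.9 in these sets, and 6.44 at 978.5 mg/kg. Of the 14 glucocorticoid and fasting genes 8 were higher in replicates 4 to 6, close to an even split. The mean level of the 14 genes was 9.68 to 9.70 in replicates 1 to 3 and 9.58 to 10.21 in replicates 4 to 6. They moved both ways: the glucocorticoid target Fkbp5 had 8.05 and 9.41 and Cpt1a, the enzyme of mitochondrial fatty acid entry, 11.38 and 12.47, while Tat, the tyrosine aminotransferase of fasting liver, had 10.01 and 9.33 and the kinase Sgk1 10.56 and 9.97. Of the 14 cell cycle and DNA partners 12 were higher in replicates 4 to 6, with a median difference of 0.232, and of the 5 red blood cell markers all were, with a median of 0.317. The mean of the 8 neutrophil markers was 6.18 in replicate 6 against a median of 5.47. The part of any of these in the spread of the Gadd45 genes was not tested.

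**Figure D2:**
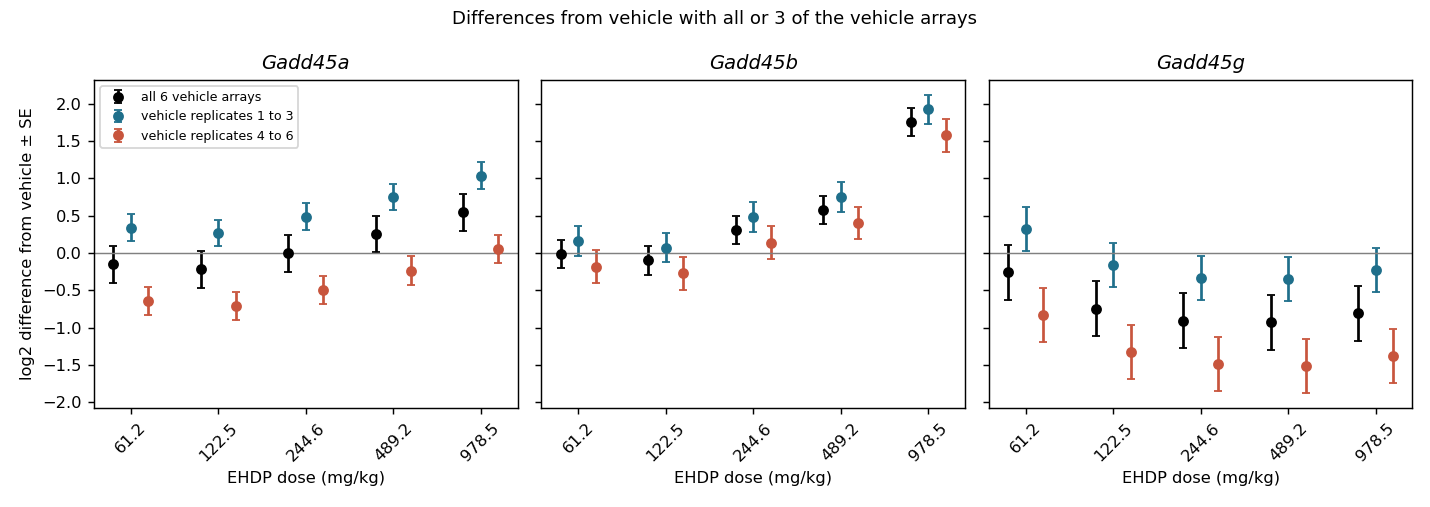
Log2 difference from vehicle (y axis) with its SE for each member at each EHDP dose in mg/kg (x axes), taken against all 6 vehicle arrays, against vehicle replicates 1 to 3 and against vehicle replicates 4 to 6. The 3 sets of points lie close together for Gadd45b at 978.5 mg/kg, while those of Gadd45a run from 0.06 to 1.04 at that dose.

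The differences from vehicle were therefore taken against each set as well. Gadd45b at 978.5 mg/kg was 1.92 above replicates 1 to 3 and 1.58 above replicates 4 to 6. Gadd45a at that dose was 1.04 above the former and 0.06 above the latter, so its difference was large or near 0 by the choice of vehicle arrays. Gadd45g at that dose was -0.22 from the former and -1.38 from the latter. The rise of Gadd45b thus did not turn on the choice, and the values of the other members did.

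Whether members responded differently was asked within each array, on the difference between the log2 signals of a pair of members. At 978.5 mg/kg the response of Gadd45b exceeded that of Gadd45a by 1.20, and all 3 arrays lay above all vehicle arrays. It exceeded that of Gadd45g by 2.55, again with no overlap. The response of Gadd45a exceeded that of Gadd45g by 1.35, with 2 of 3 arrays above all vehicle arrays. The exact two-sided permutation p was 0.0119, 0.0119 and 0.0238, of which 0.0119 is the smallest that 84 splits allow. After Benjamini-Hochberg adjustment over the 15 pairs and doses compared, these exact p values were 0.0893, 0.0893 and 0.119, so no difference between members passed the threshold of 0.05. This design can reach an adjusted p below 0.05 only if several of the 15 comparisons have a small p together.

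Across the 21 arrays, which share the dose groups and the 6 vehicle arrays, Pearson's r was 0.62 between Gadd45a and Gadd45b, 0.12 between Gadd45a and Gadd45g and -0.31 between Gadd45b and Gadd45g. These are descriptions over arrays that are not independent of dose.

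**Figure D3:**
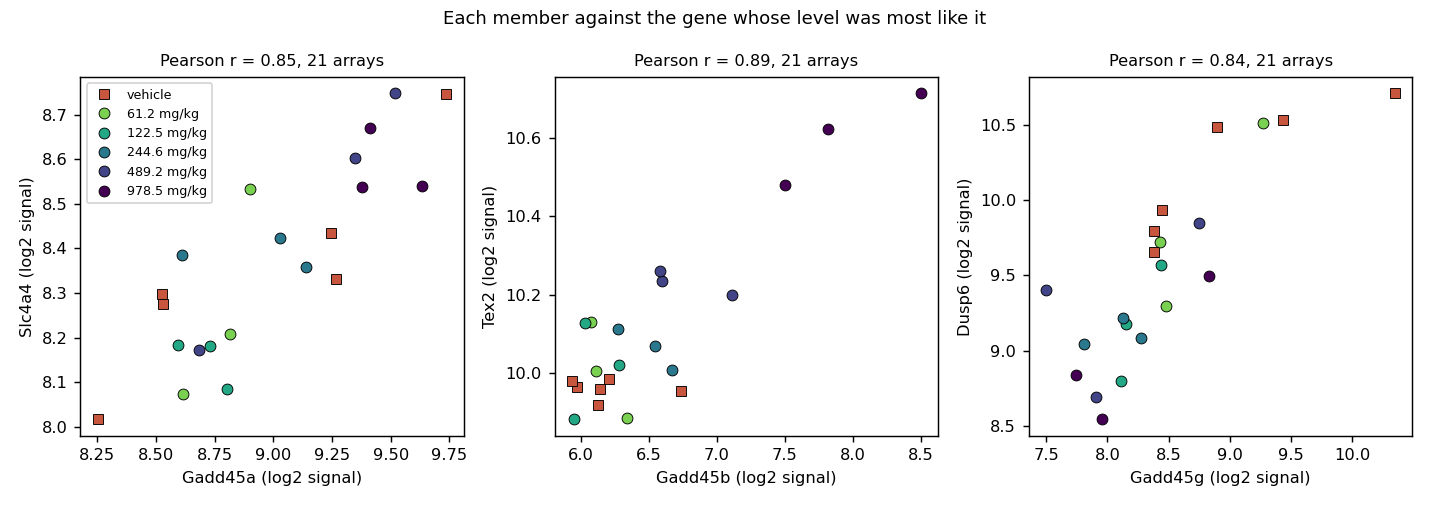
Log2 signal of Gadd45a, Gadd45b and Gadd45g (x axes) against that of the gene with the highest Pearson correlation with it (y axes: Slc4a4, Tex2 and Dusp6) in the 21 arrays, coloured by group. The 3 arrays at 978.5 mg/kg lie apart from the others for Gadd45b and Tex2, and the high end of Gadd45g and Dusp6 is held by vehicle arrays and 1 array at 61.2 mg/kg.

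The genes whose pattern over the 21 arrays was most like each member were different for each. For Gadd45b the highest correlations were with Tex2 (0.888), Mdm2 (0.887), Ttc39a (0.875), Sik2 (0.867) and Sar1b (0.857), and the lowest with Pgrmc2 (-0.872), Pgls (-0.87) and Asb6 (-0.865). Mdm2 encodes the ubiquitin ligase that restrains p53. Its log2 signal was 9.15, 9.34 and 9.24 at 978.5 mg/kg, above all vehicle arrays, which ran up to 8.59. All 5 genes most like Gadd45b were called higher at 978.5 mg/kg against vehicle, from 0.48 for Sar1b to 1.93 for Ttc39a, which is a description, since they were chosen on the same arrays.

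For Gadd45a the highest were Slc4a4 (0.849), Ctsl (0.834), Ptp4a1 (0.826), Il1r1 (0.821) and Bnip3 (0.787), and the lowest Cyp2f4 (-0.845), Ihh (-0.828) and Ppard (-0.778). Slc4a4 encodes a sodium bicarbonate cotransporter, Ctsl the lysosomal protease cathepsin L and Bnip3 a mitophagy receptor. None of these 5 was called at 978.5 mg/kg, with differences of 0.23 to 0.44. For Gadd45g the highest were Dusp6 (0.838), Pdk4 (0.771), Emb (0.749), Tle1 (0.742) and Dixdc1 (0.738), and the lowest Tmem97 (-0.714), Gstt3 (-0.714) and Syngr3 (-0.701). Dusp6 encodes the phosphatase that switches off ERK, and Pdk4 the kinase that shuts pyruvate dehydrogenase in fasting. Dusp6 was called lower at 978.5 mg/kg, by -1.23 ± 0.29 (SE) with a limma adjusted p of 0.0105, and Pdk4 differed by -0.93 ± 0.36 with a limma adjusted p of 0.11. Dusp6 was high in vehicle replicates 4 to 6 as Gadd45g was, with 10.71, 10.54 and 10.49 there and 9.79, 9.93 and 9.65 in replicates 1 to 3. For Pdk4 the 2 sets overlapped, with 10.19, 10.56 and 10.77 in replicates 4 to 6 and 10.24, 9.57 and 9.51 in replicates 1 to 3.

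Downstream of the GADD45 proteins lies the stress kinase pathway. Of its 16 measured genes, 1 rose and 1 fell at 978.5 mg/kg, a share near the 10.2% of all genes called there, and the median difference was 0.02, beside -0.02 over all genes. Map2k3, the kinase that activates p38, rose by 0.34 ± 0.10 (SE) with a limma adjusted p of 0.0292. Mapkapk2, a kinase that p38 activates, fell by 0.67 ± 0.12 with a limma adjusted p of 0.00129. Map3k4, the kinase that the GADD45 proteins bind, differed by 0.13 ± 0.07 with a limma adjusted p of 0.228.

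Of 14 cell cycle and DNA partners, none rose and 2 fell at 978.5 mg/kg, again near the 10.2% of all genes, and the median difference was 0.11. Cdkn1a, which encodes the cell cycle inhibitor p21, fell by 2.18 ± 0.24 (SE), 4.54-fold, with a limma adjusted p of 9.88e-06. Tdg, a glycosylase of active DNA demethylation, fell by 0.30 ± 0.09 with a limma adjusted p of 0.0439. At 244.6 mg/kg, where 2.95% of all genes were called, 4 of the 14 rose: Cdk1, Ccnb1, Ccnb2 and Aurka, by 2.84, 2.38, 2.48 and 1.69, and these encode the mitotic kinase CDK1, its cyclins and Aurora A. No member of the Gadd45 family was called at that dose.

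Among 22 regulators of GADD45 genes, 2 rose and 1 fell at 978.5 mg/kg, also near the 10.2% of all genes, and the median difference was -0.05. Ppara, the fatty acid receptor of fasting liver, rose by 0.51 ± 0.13 (SE) with a limma adjusted p of 0.0157, and Smad2, a carrier of TGF-beta signals, by 0.29 ± 0.08 with a limma adjusted p of 0.0291. Egr1 fell by 2.51 ± 0.60, 5.69-fold, with a limma adjusted p of 0.0112. The transcripts of CAR (Nr1i3) and PXR (Nr1i2), the receptors of foreign compounds, differed by -0.32 ± 0.31 and -0.17 ± 0.13, with limma adjusted p values of 0.565 and 0.467.

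**Figure D4:**
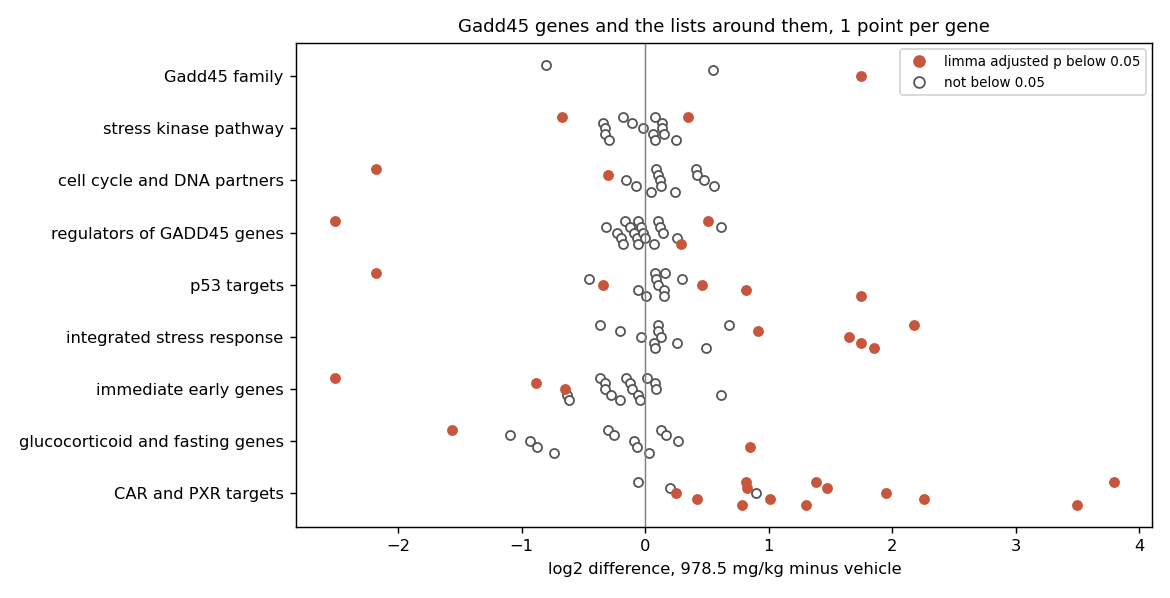
Log2 difference between 978.5 mg/kg and vehicle (x axis) for each measured gene of the Gadd45 family and of 8 gene lists (rows), filled where the limma adjusted p was below 0.05. In the CAR and PXR list 13 of 16 genes are filled, all to the right, while the stress kinase row holds 1 filled gene on each side.

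Target genes of those receptors rose in numbers. Of 20 CAR and PXR targets listed, 16 were measured, and Cyp2b1 and Cyp2b2 were not among them. Of the 16, 13 rose and none fell at 978.5 mg/kg, with a median of 0.95. The largest rises were of the carboxylesterase Ces2c at 3.79 ± 0.26 (SE) and the efflux pump Abcc3 at 3.50 ± 0.30, with limma adjusted p values of 6.13e-08 and 3.62e-07. Cyp2b12, the Cyp2b gene that was measured, differed by -0.06 ± 0.09 with a limma adjusted p of 0.722. The count of targets that rose was 1, 6, 8 and 12 of 16 at the lower doses, in order of dose. Over all genes the shares called at these doses were 0.0141%, 0.113%, 2.95% and 2.90%, and 10.2% at 978.5 mg/kg. The targets named next differed in how far they rose over the highest doses. Between 244.6 and 978.5 mg/kg, where Gadd45b went from 0.31 to 1.75 above vehicle, Abcb1a, an efflux pump, went from 0.85 to 2.26 and Alas1, the first enzyme of haem synthesis, from 0.66 to 1.95. Over the same doses Abcc3 went from 2.89 to 3.50 and Ugt2b1, a glucuronidation enzyme, from 1.24 to 1.38. These examples were chosen after their values were seen, and the shapes were not tested against each other.

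The p53 targets had no common direction. Of 15 measured, 3 rose and 2 fell at 978.5 mg/kg, with a median of 0.11, where 10.2% of all genes were called. Ddit4, an inhibitor of mTORC1, and Mdm2 rose by 1.74 and 0.81, and Cdkn1a and Aen, a nuclease, fell by 2.18 and 0.34. Of 16 genes of the integrated stress response, 5 rose and none fell at that dose, with a median of 0.19, beside the same 10.2%. The largest rises were of Psat1 and Asns, enzymes of serine and asparagine synthesis, at 2.18 ± 0.29 (SE) and 1.85 ± 0.27, with limma adjusted p values of 9.54e-05 and 0.000207.

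Of 19 immediate early genes, none rose and 3 fell at 978.5 mg/kg, with a median of -0.21, where 10.2% of all genes were called. Besides Egr1 these were Ier2, which fell by 0.89, and Ier5. The vehicle arrays of this list were themselves spread, as given above. Of 14 glucocorticoid and fasting genes, 1 rose, the fasting regulator Klf15 by 0.85, and 1 fell, the lipase inhibitor Angptl4 by 1.56. Of 9 clock genes that peak late in the day, 5 rose, led by the output factor Dbp at 2.87 and the repressor Nr1d1 at 1.82, and of 5 that peak late at night, 4 fell, led by Npas2 by 1.75 and Nfil3 by 1.28. Hours of sacrifice by group were not given in the sources used here, and the part of time of day in the Gadd45 values was not tested.

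Markers of other liver cells were set beside the Gadd45b rise, because stromal and blood cells also express this gene. At 978.5 mg/kg 1 of 11 macrophage markers, 1 of 10 endothelial, 2 of 12 stellate cell and fibroblast and 3 of 5 red blood cell markers fell and none of these rose, 1 of 7 bile duct markers rose, and none of 12 lymphocyte and 8 neutrophil markers was called. Of all genes 10.2% were called at that dose. The counts of macrophage, endothelial, stellate cell and fibroblast and bile duct markers lay near that share. The mean macrophage marker level was 9.10 to 9.51 at that dose and 9.59 to 10.01 in the vehicle arrays, and the mean neutrophil marker level was 5.26 to 5.32 against 5.39 to 6.18. The mean lymphocyte marker level was 5.83 to 6.03 against 6.05 to 6.34. The mean endothelial marker level was 8.48 to 8.92 against 8.57 to 9.19, with replicate 1 the lowest array in each of the 6 groups, and that of stellate cells and fibroblasts 7.13 to 7.68 against 7.55 to 8.02. Red blood cell markers had a mean of 7.93 to 8.54 against 8.61 to 9.54, and bile duct markers 6.12 to 6.17 against 5.99 to 6.25. No marker list other than that of bile duct cells had a called gene that rose where Gadd45b rose, and the part of these cells in that rise was not tested.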

How the data were processed

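RNA of 21 liver samples was labelled with biotin and read on an Affymetrix rat array. The deposited table holds 1 log2 value per probe set and array, made by the authors with RMA, per the submitters' processing notes. RMA corrects background, makes the arrays' distributions alike and summarises the oligos of a probe set; its version is not given in the sources used here. GEO's platform annotation gave 1 gene symbol to 20832 probe sets, several to 436 and none to 9831, and the probe set with the highest mean stood for each of 14218 genes. limma 3.58.1 in R 4.3.3 fitted 1 mean per group over all arrays, and a slope on dose rank, with Benjamini-Hochberg adjustment over all genes and a threshold of 0.05. Exact permutation tests compared members. Named genes were the members, the 5 genes most and 3 least correlated with each over the arrays (symbols beginning LOC, RGD or AABR left out), and up to 2 called genes per direction and list at the highest dose; the other genes were named after their values were seen. The members and lists were chosen with earlier results of these data known. Scripts were tested on simulated data. Array number limits precision, and depth does not apply. The protocol gives 3 rats per dose but 5 for the 6 vehicle arrays, so whether each array is a separate rat is not certain, and p values measure the spread between these samples. Replicate numbers were not taken to pair the arrays, since the labels name nothing shared. The data do not settle this, as 10 of 18 arrays correlated best with their own number. A fit with the replicate block changed some calls of the members, given below. Promoters came from RefSeq, GRCr8, matched by symbol for 3 of 3 members, and no protein sequences were used here. Tried alternatives were the filter, the normalization, array weights, the fit, left-out arrays and the replicate block.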

Additional observations from a re-analysis of the deposited data

Results flagged for a closer look

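In the vehicle group of 6 arrays, Gadd45b was 6.74 in replicate 6, far above the others, whose group median was 6.13. The mean over the immediate early genes was also highest in vehicle replicate 6, at 8.21 against a median of 7.73, and so was the mean over the neutrophil markers, at 6.18 against 5.47. The mean over the macrophage markers was lowest in vehicle replicate 5, at 9.59 against a median of 9.91. Each of these arrays was farther from its neighbour than Dixon's test allows at 95% in a group of 6. In all, 21 measures (the 3 members and 18 gene lists) were examined and 4 stood out in this way. Chance marks about 1 in 20 of separate measures. These measures share the same 6 arrays and some lists share genes, so the count cannot be set against that rate. The part of these arrays in the member values was not tested beyond leaving each out.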

How the results depend on the processing

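The rise of Gadd45b at 978.5 mg/kg against vehicle stayed called in all 19 alternatives, between 1.47 and 1.97, with limma adjusted p values of 1.32e-06 to 0.000974, as did its slope in all 32, and its differences from 61.2 and 122.5 mg/kg in all 14 each. Gadd45b lies below the median level of all genes, so keeping only genes above it gave no value for this member. The difference from 489.2 mg/kg was no longer called with every probe set tested by itself (1.18), with array weights (1.13) or with only the arrays of the 2 groups (1.18), where that from 244.6 mg/kg (1.44) was also lost. Leaving out arrays in turn took these between 0.90 and 1.39 and between 1.16 and 1.66. Array weights made Gadd45b at 489.2 mg/kg called (0.70) and turned Gadd45b at 61.2 mg/kg (0.12) and Gadd45a at 244.6 mg/kg (0.082). A second quantile normalization turned Gadd45b at 61.2 mg/kg (0.018). The Gadd45g slope was not called with every probe set by itself (-0.19), with the trend and robust options of eBayes (-0.19), on dose in mg/kg (-0.00077 per mg/kg) or in the treated arrays alone (-0.13), where the Gadd45a slope was called (0.19). Against vehicle replicates 1 to 3 alone, chosen after seeing the data, Gadd45a was 0.34, 0.27, 0.49, 0.75 and 1.04 from the lowest dose to the highest, the last 2 called, with a called slope of 0.19; Gadd45b was 0.16 and 0.073 at the lowest doses, and Gadd45g 0.32 at 61.2 mg/kg with an uncalled slope of -0.094. Against replicates 4 to 6 alone, Gadd45a at 489.2 mg/kg was -0.23, and Gadd45g was called at 489.2 (-1.51) and 978.5 mg/kg (-1.38). The fit with the replicate block had the same differences as replicates 1 to 3 alone, since vehicle replicates 4 to 6 have no partner and drop out, and called Gadd45a at 489.2 (0.75) and 978.5 mg/kg (1.04), Gadd45b at 489.2 mg/kg (0.75) and the Gadd45a slope (0.19), and not the Gadd45g slope (-0.094). Same-numbered arrays had correlations of -0.23 to 0.369 in their deviations from group means, with a median of 0.0603 beside -0.0232 for other pairs, and 17 of 45 pairs were over 0.1. Of 18 arrays numbered 1 to 3, 10 correlated best with their own number, and replicate 1 had the lowest endothelial marker mean in all 6 groups, a hint from the data, not the design, that the numbers may mark something shared. Leaving out each array in turn gave -0.285 to 0.012 for Gadd45a at 61.2 mg/kg, -0.14 to 0.16 at 244.6 mg/kg and 0.41 to 0.71 at 978.5 mg/kg, with a slope of 0.079 to 0.13. It gave -0.093 to 0.098 for Gadd45b at 61.2 mg/kg, -0.20 to 0.011 at 122.5 mg/kg and 0.40 to 0.68 at 489.2 mg/kg, and -0.53 to 0.018 for Gadd45g at 61.2 mg/kg, with a slope of -0.24 to -0.14. Over all alternatives the genes called against vehicle numbered 0 to 4 at 61.2 mg/kg (2 as reported), 4 to 357 at 122.5 mg/kg (16), 112 to 766 at 244.6 mg/kg (420), 157 to 514 at 489.2 mg/kg (412) and 702 to 1987 at 978.5 mg/kg (1457), and 441 to 2130 in the slope (1589). The cause of these changes was not tested. A probe's signal over background is not in the table, so detection of the members cannot be given.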
